A study of Homo sapiens with 6 samples.

Results

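The genes of the TGF-beta and BMP pathways were examined in HEK293 cells, a line made from human embryonic kidney, with and without Wnt3a and with and without knockdown of SET8. The 43 genes were matched on the array by gene name or by Entrez gene number, which gave 88 of the 45033 probe sets. A probe set is a small group of probes for 1 transcript. All groups were grown in DMEM with 10% FBS. The first group, called the control group here, received control shRNA for about 40 hours and then control conditioned medium for 7 hours. The second, the Wnt3a group, received control shRNA and then Wnt3a conditioned medium. The third, the SET8 shRNA group, received SET8 shRNA and then Wnt3a conditioned medium. Each of the 3 groups had 2 arrays. The series text calls the transfection siRNA while the sample labels say shRNA, and the Wnt3a came as conditioned medium, not as a purified protein. No group with SET8 shRNA in control medium was analysed here, so whether the knockdown altered the response to Wnt3a could not be tested.

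TGF-beta, activin and BMP ligands bind pairs of type I and type II receptor kinases, which phosphorylate receptor-regulated SMAD proteins. These join SMAD4 in the nucleus and act on target genes, of which the ID genes are the best known for the BMP branch. Secreted antagonists such as noggin, the inhibitory SMADs, the SMURF ubiquitin ligases and the SKI proteins restrain the signal. SET8, now named KMT5A, is the enzyme that adds a single methyl group to a lysine of histone H4.

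The ID genes encode helix-loop-helix proteins that lack a DNA-binding region and block the factors they pair with. Their values with SET8 shRNA, given further on, differed in direction from gene to gene, so the 250 bases before each ID gene's start are printed here. The sequences are from RefSeq on GRCh38.p14 and run 5′ to 3′ on the gene's strand. Capitals mark any match, on either strand, to 3 motifs: GGCGCC, a SMAD palindrome known from BMP-responsive genes, CAGAC, the SMAD box, and CTTTGA, the core bound by TCF and LEF factors of the Wnt pathway.
ID1, chr20:31605039-31605288, plus strand: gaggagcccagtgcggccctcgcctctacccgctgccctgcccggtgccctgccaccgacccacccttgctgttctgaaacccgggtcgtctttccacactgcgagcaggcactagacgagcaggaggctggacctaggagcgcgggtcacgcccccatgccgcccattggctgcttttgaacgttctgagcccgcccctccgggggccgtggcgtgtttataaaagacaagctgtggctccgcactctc
ID2, chr2:8681806-8682055, plus strand: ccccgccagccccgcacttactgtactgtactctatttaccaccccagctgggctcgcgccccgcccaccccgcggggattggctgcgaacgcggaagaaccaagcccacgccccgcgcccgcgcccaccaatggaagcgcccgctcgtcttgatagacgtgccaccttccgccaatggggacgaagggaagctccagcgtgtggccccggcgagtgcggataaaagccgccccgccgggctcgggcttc
ID3, chr1:23559502-23559751, minus strand: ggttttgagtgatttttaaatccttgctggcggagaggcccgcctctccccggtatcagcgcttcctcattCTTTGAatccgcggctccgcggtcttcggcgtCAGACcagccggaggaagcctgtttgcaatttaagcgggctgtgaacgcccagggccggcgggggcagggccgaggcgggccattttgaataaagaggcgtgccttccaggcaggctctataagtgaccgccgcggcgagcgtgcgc
ID4, chr6:19837120-19837369, plus strand: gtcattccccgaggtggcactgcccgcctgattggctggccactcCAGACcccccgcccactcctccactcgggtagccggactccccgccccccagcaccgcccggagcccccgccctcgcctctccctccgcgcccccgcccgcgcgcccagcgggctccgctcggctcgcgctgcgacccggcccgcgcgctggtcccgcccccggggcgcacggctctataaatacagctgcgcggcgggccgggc
ID1 and ID2 held none of the 3 motifs in this window. ID3 held CAGAC, first base 147 bases before the start, and CTTTGA 179 bases before it. ID4 held CAGAC 205 bases before its start. The GC content was 66.0% for ID1, 69.2% for ID2, 62.0% for ID3 and 78.8% for ID4, against a median of 58.0% over 35116 RefSeq promoter windows of the same length. GGCGCC occurred in 15 of the 65 windows of the pathway genes (23.1%) and in 16.4% of all windows. CAGAC occurred in 26 of the 65 (40%) and in 38% of all, and CTTTGA in 6 of the 65 (9.23%) and in 11.2% of all. Genes with several annotated starts have several windows, which can share bases. These matches describe letters in a short window, not bound sites.

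The arrays gave 1 summarised intensity per probe set, used here on a log2 scale. KMT5A, the gene targeted by the shRNA, read 11.03 and 10.75 in the control group, 11.20 and 10.53 in the Wnt3a group and 8.97 and 9.65 in the SET8 shRNA group on probe set AY064546. Both SET8 shRNA arrays lay below all others, a log2 fold change of -1.56 (SE 0.34) against the Wnt3a group with an adjusted p of 0.24 (limma, Benjamini-Hochberg), so the knockdown was seen without passing the threshold. The Wnt target AXIN2 was 1.56 higher in log2 terms in Wnt3a medium on BC101533 (SE 0.38, adjusted p = 1 by limma with Benjamini-Hochberg). The log2 values of the 2 arrays of a group correlated at 0.972 to 0.985 across probe sets, and for 1.86% to 8.98% of probe sets in the fit they were over 2-fold apart. Of 8 markers of the HEK293 line, 6 were bright enough to test (KRT8, KRT18, VIM, CDH2, NEFM and PAX2), none with an unadjusted p under 0.05 in the Wnt3a or SET8 comparison. None of 5 endothelial markers was, nor were 8 of 11 fibroblast markers and 4 of 8 blood cell markers. The summed intensity of the fibroblast markers was 6306 to 6697 in the control group, 6379 to 7234 in the Wnt3a group and 4731 to 5116 in the SET8 shRNA group. That of the blood cell markers was 2137 to 2763, 2558 to 2797 and 1343 to 1384 in the same order, and that of the endothelial markers 478 to 532, 298 to 504 and 241 to 256. The fibroblast sum was carried by COL1A1, and without it was 1377 to 1473, 586 to 676 and 482 to 659, so it was lower in Wnt3a medium with either shRNA. In Wnt3a medium 13 of 25 fibroblast probe sets, of 6 genes (COL1A2, COL3A1, COL6A3, DCN, POSTN and THY1), lay at least 1.5-fold lower on both arrays (52%, against 0.908% of all probe sets on the array). Most of these were too dim to test. CD14, a blood cell marker, was 0.73 higher in Wnt3a medium on BC010507, given as a description only. Its control arrays lay under their medians, so it entered the test only through the Wnt3a medium arrays. Of the blood cell probe sets 2 of 15 lay at least 1.5-fold higher there on both arrays (13.3%, against 1.23% of all). With SET8 shRNA the blood cell genes CD68 and HBA1 were lower at an unadjusted p under 0.05 by limma, whereas CD14 was 0.02 on BC010507. HBA2 was also lower (-1.12), but lay under the median of both SET8 shRNA arrays. It entered the test only through the control and Wnt3a group arrays. CD68, HBA1 and HBA2 held 3 of 15 blood cell probe sets at least 1.5-fold lower on both arrays (20%, against 1.45% of all). CDH5 and VWF held 3 of 9 such endothelial probe sets (33.3%), and no other gene of these lists held any. Some of these markers thus differed with the medium and some with the shRNA. Their part in the Wnt3a and SET8 values given here was not tested. In cells measured in bulk, fewer cells of a type and less RNA per cell cannot be told apart.

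Of the 88 probe sets, 68 of 35 genes were bright enough to test, meaning that they lay above the median of their array (7.63 to 7.79) in at least 2 arrays. INHBB probe set BC030029 passed that filter only through the SET8 shRNA arrays, so it could enter only by being high there. Its values are described without a test, but counts over the 68 probe sets include it. The 8 genes without a tested probe set were ACVR2A, INHBA, INHBE, LEFTY1, LEFTY2, NODAL, SKIL and TGFB2. Their highest level in any array was 7.80, 7.31, 7.01, 7.14, 6.76, 7.37, 6.61 and 7.90 in that order, against a random control level of 4.66 to 4.84. Activin A, which is made from INHBA, NODAL and the LEFTY antagonists therefore enter no comparison.

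Between control and Wnt3a medium no pathway gene passed the test. The count was 0 of 68 probe sets at an adjusted p under 0.05 (limma, Benjamini-Hochberg), where 0% of the 23808 probe sets tested were called. At an unadjusted p under 0.05 the count was also 0 in each direction, against 1.61% of all probe sets higher and 0.529% lower. No member was separated by 1.5-fold, which means both arrays of a group at least 1.5-fold above or below both of the other, against 0.521% higher and 0.122% lower among all. Taking for each gene the tested probe set with the highest mean, 20 genes were higher and 15 lower, with a median log2 fold change of 0.04 against 0.02 over 13071 genes. The middle 50% of the members lay between -0.09 and 0.20, close to the -0.12 to 0.17 of all genes. The 95% interval of the difference stayed within 2-fold for 40 of the 68 probe sets and reached it for the other 28, so a 2-fold difference was not excluded for those. Same-numbered control and Wnt3a arrays deviated together over all tested probe sets (correlation 0.75), which this fit did not take into account. Leaving out single arrays moved the counts of 0, and those over the whole array with them. At an unadjusted p under 0.05 there were 5 members without Wnt3a replicate 2 (7.35%, against 3.92% of all), 3 without control replicate 1 (4.41%, against 4.08%) and 1 without control replicate 2 (1.47%, against 1.5%). At 1.5-fold separation there were 6 without Wnt3a replicate 2 (8.82%, against 3.93%), 4 without control replicate 1 (5.88%, against 4.96%), 1 without control replicate 2 (1.47%, against 2.18%) and 1 without Wnt3a replicate 1 (1.47%, against 3.79%).

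Between SET8 and control shRNA, both in Wnt3a medium, no member passed the adjusted threshold either: 0 of 68, where 0% of all probe sets tested were called, with a smallest adjusted p of 0.24, for ID1, once INHBB BC030029 is set aside (limma, Benjamini-Hochberg). This comparison uses the same Wnt3a group arrays as the one above, so the values of the 2 comparisons are not independent. At an unadjusted p under 0.05, 5 member probe sets were higher (7.35%, against 3.76% of all) and 4 were lower (5.88%, against 3.41%). The 5 higher ones belong to INHBB, NOG, ACVR2B, TGFBI and ID2, and the 4 lower ones are both probe sets of ID1 and both of ID3. Without INHBB BC030029 there were 4 higher and 4 lower of 67 (5.97% each), and the paired probe sets of ID1 and ID3 make these 4 lower ones 2 genes. Separation by 1.5-fold was met by 1 probe set upward (INHBB BC030029; 1.47%, against 1.7% of all) and by 2 downward (both of ID1; 2.94%, against 1.46%), and without INHBB BC030029 by 0 upward. Over genes, 17 were higher and 18 lower, with a median of -0.01 against 0.00 for all genes. The 95% interval stayed within 2-fold for 35 probe sets, reached it for 33 and excluded 0 for 9. INHBB BC030029 is among these 9, and the counts that follow are over all 68 probe sets with it included. The 9 probe sets at an unadjusted p under 0.05 (13.2%, against 7.16% of all in either direction) became 4 without SET8 shRNA replicate 1 (5.88%, against 5.36%), 4 without replicate 2 (5.88%, against 4%) and 5 without Wnt3a replicate 1 (7.35%, against 9.05%). The 3 separated by 1.5-fold (4.41%, against 3.16%) became 5 and 6 without SET8 shRNA replicates 1 and 2 (7.35% and 8.82%, against 8.42% and 6.32%). They became 8 and 13 without Wnt3a replicates 1 and 2 (11.8% and 19.1%, against 13.7% and 9.89%). A lone array is more easily passed by any probe set, and all 4 of these shares over the array exceeded 3.16%.

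**Figure D1:**
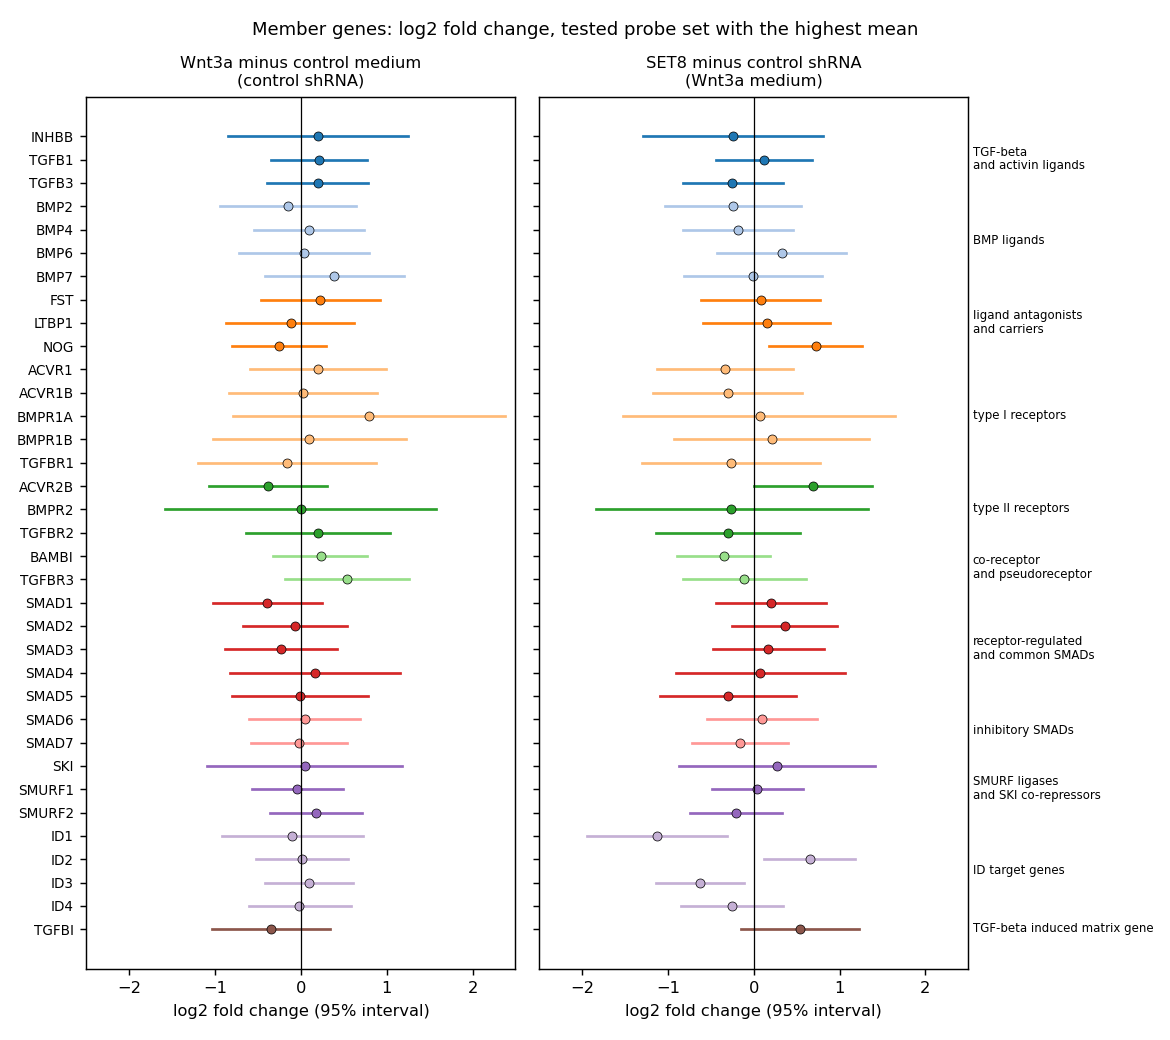
Log2 fold changes with 95% intervals of the 35 tested member genes, grouped by role, for Wnt3a against control medium and for SET8 against control shRNA, each gene by its tested probe set with the highest mean. The Wnt3a values run from -0.39 to 0.79 around a median of 0.04, and the SET8 values from -1.13 for ID1 to 0.72 for NOG.

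Among the ID genes, ID1 and ID3 read lower and ID2 higher with SET8 shRNA, while Wnt3a medium left all 7 probe sets between -0.10 and 0.21 of the control group. ID1 probe set NM_181353, on chromosome 20 at 29656752 to 29657974 (hg18), read 11.36 and 11.75 in the control group, 11.45 and 11.56 in the Wnt3a group and 10.50 and 9.91 with SET8 shRNA. Both SET8 shRNA arrays lay under the 4 others. The log2 fold change against the Wnt3a group was -1.30 (SE 0.29, 95% interval -1.97 to -0.63), a 2.46-fold lower level, with an unadjusted p of 0.0023 and an adjusted p of 0.24 by limma with Benjamini-Hochberg.

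The second ID1 probe set, NM_002165, spans the same bases and read 11.26 and 12.03, then 11.40 and 11.69, then 10.74 and 10.09 in the 3 groups in the same order. Again no SET8 shRNA array reached any of the other arrays, although the control arrays were themselves further apart. Its log2 fold change was -1.13 (SE 0.35), or 2.18-fold lower, with an adjusted p of 0.47 (limma, Benjamini-Hochberg). The probe sets share a transcript region and are not separate evidence of a difference in the cells.

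ID3 probe set BC003107, on chromosome 1 at 23757007 to 23758590 (hg18), read 12.76 and 12.89 in the control group, 12.87 and 12.94 in the Wnt3a group and 12.37 and 11.94 with SET8 shRNA. ID3 probe set NM_002167 read 13.03 and 13.00, 13.17 and 13.04, and 12.51 and 12.44. On each probe set the SET8 shRNA arrays were the lowest of the 6, without overlap. The log2 fold changes were -0.75 (SE 0.25, 1.69-fold) and -0.63 (SE 0.22, 1.54-fold), with adjusted p of 0.50 and 0.58 by limma with Benjamini-Hochberg.

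ID2 probe set NM_002166, on chromosome 2 at 8739563 to 8742034 (hg18), went the other way: 12.89 and 13.11 in the control group, 13.05 and 12.97 in the Wnt3a group, and 13.73 and 13.59 with SET8 shRNA. Probe set BC030639 read 11.99 and 12.31, 12.36 and 12.37, and 12.65 and 12.78. The SET8 shRNA arrays were the highest on each. The log2 fold change was 0.65 on the first (SE 0.23, 1.57-fold, adjusted p = 0.57, limma with Benjamini-Hochberg) and 0.35 on the second (SE 0.24, unadjusted p = 0.18). ID4, read by 1 probe set (NM_001546), gave 11.06 and 10.89, 11.06 and 10.85, and 10.49 and 10.92. Its SET8 shRNA arrays overlapped the Wnt3a group, and the difference of -0.25 (SE 0.25) had a 95% interval from -0.85 to 0.34 and ran from -0.47 to -0.04 without single arrays.

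**Figure D2:**
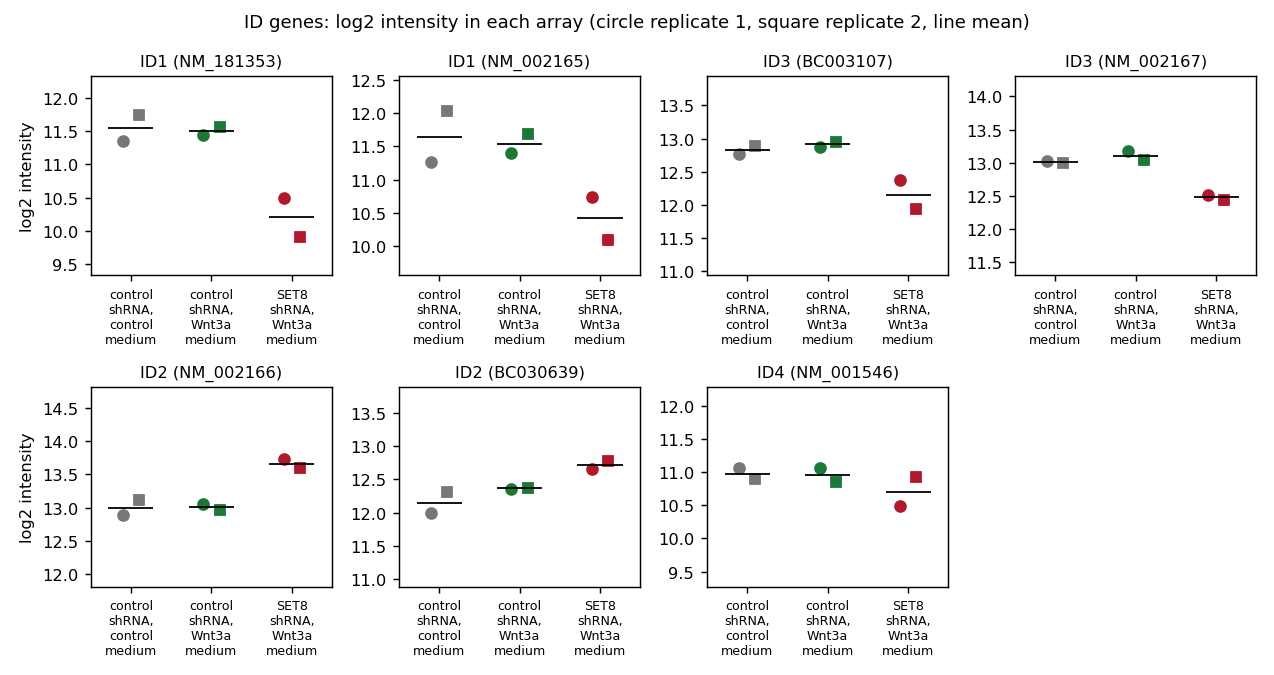
Log2 intensity of the ID probe sets in each of the 6 arrays, by group, with circles for replicate 1, squares for replicate 2 and bars for the group mean. The SET8 shRNA arrays lie below all others for both ID1 and both ID3 probe sets, above all others for both ID2 probe sets, and overlap the Wnt3a group for ID4.

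Among the TGF-beta and activin ligands, INHBB, which encodes the beta-B subunit of activin B and inhibin B, gave different values on its probe sets. BC030029, on chromosome 2 at 120820188 to 120825444 (hg18), read 7.02 and 6.88 in the control group, 6.87 and 6.22 in the Wnt3a group and 7.78 and 8.26 with SET8 shRNA. The SET8 shRNA arrays were above the 4 others, and the 4 others lay under the median of their arrays. The log2 difference from the Wnt3a group was 1.48, given as a description only, since the filter admitted this probe set through those arrays. NM_002193, whose span contains that of BC030029 and which has the higher mean, read 7.42 and 8.37, 7.53 and 8.67, and 7.96 and 7.75. The groups overlapped, with a difference of -0.24 (SE 0.45), and that difference was 0.33 without replicate 2 of the Wnt3a group. The mean of the 2 probe sets gave 0.62, a value that includes BC030029.

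TGFB1, the main secreted TGF-beta, read 14.21 and 13.96 in the control group, 14.44 and 14.16 in the Wnt3a group and 14.38 and 14.45 with SET8 shRNA on BC000125. TGFB3, a second TGF-beta isoform, read 8.20 and 8.12, 8.17 and 8.53, and 7.96 and 8.25 on NM_003239. The groups overlapped for each gene in both comparisons.

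The BMP ligands BMP2, BMP4, BMP6 and BMP7 were all tested and ran from -0.15 to 0.39 with Wnt3a medium and from -0.24 to 0.33 with SET8 shRNA. BMP2 read 11.82 and 12.43, 11.66 and 12.28, and 11.49 and 11.96 on NM_001200 in the control, Wnt3a and SET8 shRNA groups, which overlapped. BMP7 read 9.79 and 9.98, 10.07 and 10.22, and 10.27 and 10.63 on BC004248, with no overlap between any of the groups. The other BMP7 probe set, NM_001719, read 10.05 and 10.97, 10.69 and 11.11, and 10.83 and 10.96, and overlapped in both comparisons. The smallest unadjusted p of a BMP ligand was 0.29 for Wnt3a and 0.25 for SET8 shRNA.

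Of the secreted antagonists and carriers, NOG, which encodes the BMP antagonist noggin, had the largest value with SET8 shRNA. NOG read 8.88 and 8.94 in the control group, 8.52 and 8.79 in the Wnt3a group and 9.45 and 9.30 with SET8 shRNA (NM_005450, chromosome 17 at 52026273 to 52027546, hg18). Its SET8 shRNA arrays were the highest of the 6. The log2 fold change was 0.72 (SE 0.23, 95% interval 0.18 to 1.26), 1.65-fold higher, with an adjusted p of 0.49 (limma, Benjamini-Hochberg). FST, the activin antagonist follistatin, read 9.12 and 9.42, 9.24 and 9.75, and 9.82 and 9.32 on NM_013409. LTBP1, which anchors latent TGF-beta in the matrix, read 10.64 and 10.19, 10.40 and 10.17, and 10.07 and 10.80 on M34057. Groups overlapped on all 3 FST probe sets and both LTBP1 probe sets in both comparisons.

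Among the type II receptors, ACVR2B, a receptor for activins, was higher with SET8 shRNA. ACVR2B read 11.09 and 11.41 in the control group, 10.53 and 11.20 in the Wnt3a group and 11.50 and 11.62 with SET8 shRNA (NM_001106, chromosome 3 at 38470813 to 38499868, hg18). The SET8 shRNA arrays were above the other 4, but the Wnt3a arrays were far apart. The log2 fold change was 0.69 (SE 0.29) with an unadjusted p of 0.049 and an adjusted p of 0.69 by limma with Benjamini-Hochberg. It ran from 0.35 to 1.03 when single arrays were left out, with 0.35 without Wnt3a replicate 1.

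BMPR2, the BMP type II receptor, read 8.74 and 8.37, 7.43 and 8.30, and 8.09 and 8.17 on BC052985. The Wnt3a arrays lay below the control arrays, with a log2 fold change of -0.69 (SE 0.33) and an unadjusted p of 0.072, and that value was -0.26 without Wnt3a replicate 1 and -1.12 without Wnt3a replicate 2. The other BMPR2 probe sets overlapped, and U25110 read 9.75 and 8.27, 9.95 and 8.06, and 8.52 and 8.98, with arrays of 1 group more than 2-fold apart. TGFBR2, the TGF-beta type II receptor, read 8.63 and 9.04, 9.40 and 8.67, and 8.37 and 9.08 on BC040499, with overlap throughout.

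All 5 type I receptors (TGFBR1, ACVR1, ACVR1B, BMPR1A and BMPR1B), the kinases that phosphorylate SMADs, overlapped on each of their 10 tested probe sets in the Wnt3a and SET8 comparisons. How often groups overlapped over the whole array is not given here, so this count does not set the receptors apart. Values ran from -0.16 to 0.79 for Wnt3a and from -0.34 to 0.21 for SET8 shRNA. ACVR1B, an activin receptor, read 11.27 and 10.53, 11.36 and 10.49, and 10.61 and 10.63 on NM_004302. TGFBR1 read 10.03 and 9.05, 9.86 and 8.90, and 8.85 and 9.37 on BC071181. In the control and Wnt3a groups replicate 1 was the higher array on each of these 2 probe sets. Among the type I receptors the widest 95% interval for Wnt3a was that of BMPR1A, which ran from -0.79 to 2.38, since its control arrays read 8.84 and 6.64.

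BAMBI, a pseudoreceptor without a kinase that dampens TGF-beta and BMP signals, was higher in Wnt3a medium on both probe sets without passing the test. BC019252, on chromosome 10 at 29006444 to 29011639 (hg18), read 11.75 and 11.90 in the control group, 12.27 and 12.31 in the Wnt3a group and 12.07 and 11.96 with SET8 shRNA. NM_012342 read 12.86 and 12.88, 12.94 and 13.26, and 12.71 and 12.78. On both probe sets each Wnt3a array was above each control array and each SET8 shRNA array. For Wnt3a the log2 fold changes were 0.47 (SE 0.22, unadjusted p = 0.072 by limma) and 0.23 (SE 0.23), and for SET8 shRNA -0.28 (SE 0.22) and -0.35 (SE 0.23). The SET8 value of NM_012342 was -0.19 without Wnt3a replicate 2, and its Wnt3a value was 0.06 without Wnt3a replicate 2 and 0.39 without Wnt3a replicate 1. TGFBR3, the co-receptor betaglycan, was 0.54 (SE 0.31) and 0.45 (SE 0.37) higher in Wnt3a medium on NM_003243 and L07594. Without replicate 2 of the control group those values were 0.21 and -0.06, so the second reversed.

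TGFBI, a matrix protein first found as a gene induced by TGF-beta, was lower in Wnt3a medium and higher with SET8 shRNA on all 4 probe sets. NM_000358, on chromosome 5 at 135392596 to 135427406 (hg18), read 8.24 and 8.57 in the control group, 7.65 and 8.11 in the Wnt3a group and 8.55 and 8.66 with SET8 shRNA. The Wnt3a arrays were the lowest, and the SET8 shRNA arrays overlapped the control group. For SET8 shRNA the log2 fold changes were 0.73 (SE 0.26, adjusted p = 0.59 by limma with Benjamini-Hochberg) on this probe set and 0.34 to 0.62 on the other 3. For Wnt3a they ran from -0.53 to -0.26, with a smallest unadjusted p of 0.083. Without Wnt3a replicate 1 the Wnt3a value of NM_000358 was -0.30, and the SET8 values of BC026352, BC004972 and BC000097 went from 0.62, 0.54 and 0.34 to 0.32, 0.18 and 0.02. Without Wnt3a replicate 2 the last 2 were 0.89 and 0.66.

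**Figure D3:**
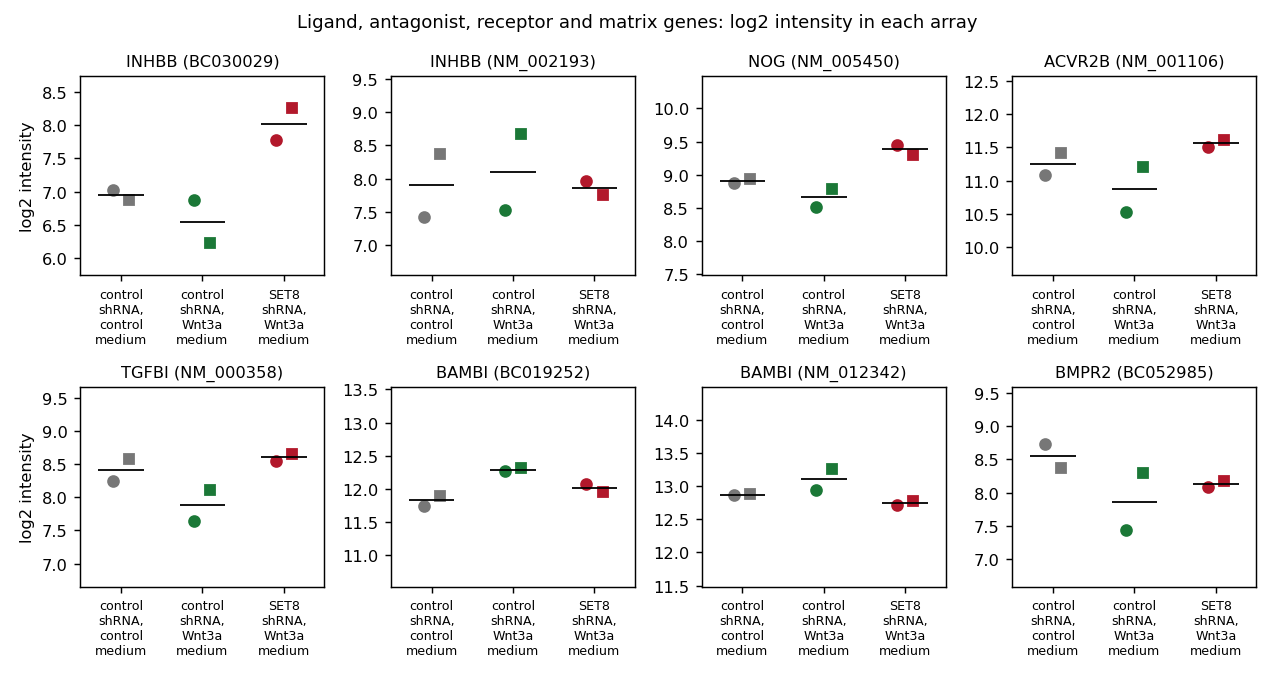
Log2 intensity in each of the 6 arrays for INHBB, NOG, ACVR2B, TGFBI, BAMBI and BMPR2 probe sets, by group, with circles for replicate 1, squares for replicate 2 and bars for the group mean. The SET8 shRNA arrays are the highest for INHBB BC030029, NOG and ACVR2B, whereas the groups of INHBB NM_002193 overlap. Both BAMBI panels have their highest arrays in the Wnt3a group.

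Among the members, the SMADs that carry the signal had small log2 fold changes, though some intervals were wide. SMAD9, which is not a member, is described further on. Over 11 tested probe sets of SMAD1, SMAD2, SMAD3, SMAD4 and SMAD5 the values ran from -0.39 to 0.16 for Wnt3a and from -0.30 to 0.36 for SET8 shRNA, with smallest unadjusted p of 0.19 and 0.21. SMAD3, a TGF-beta SMAD, read 11.38 and 11.42, 11.52 and 11.22, and 11.18 and 11.26 on BC000414. SMAD2, the other TGF-beta SMAD, read 11.03 and 10.69, 10.91 and 10.66, and 10.96 and 11.32 on BC025699. The SMAD2 arrays with SET8 shRNA were above those of the Wnt3a group and overlapped the control group, and the SMAD3 groups overlapped in the Wnt3a and SET8 comparisons. The 95% intervals for SET8 shRNA ran from -0.69 to 0.39 on SMAD3 BC000414 and from -0.44 to 0.84 on SMAD1 BC001878, within 2-fold. They reached 2-fold on SMAD4 NM_005359 (-0.91 to 1.06), SMAD4 U44378 (-1.02 to 1.06) and SMAD5 BC009682 (-1.09 to 0.49).

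SMAD7, an inhibitory SMAD induced by TGF-beta, read 13.86 and 13.58, 13.67 and 13.73, and 13.66 and 13.42 on NM_005904. Its other probe set, BC074818, read 10.67 and 9.19, 11.13 and 8.76, and 9.98 and 10.29, and left an interval of -1.61 to 1.98 for SET8 shRNA. SMAD6, the inhibitory SMAD of the BMP branch, read 10.57 and 10.35, 10.63 and 10.14, and 10.40 and 10.59 on BC012986. The values of the 2 genes ran from -0.16 to 0.19 with SET8 shRNA.

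The ubiquitin ligases SMURF1 and SMURF2, which mark SMADs and receptors for degradation, stayed within -0.21 to 0.27 with SET8 shRNA together with the co-repressor SKI. SMURF1 read 11.49 and 11.39, 11.30 and 11.50, and 11.37 and 11.50 on NM_020429. SMURF2 read 11.17 and 11.11, 11.18 and 11.45, and 11.10 and 11.12 on BC111945, its brightest probe set. Its values there were 0.18 for Wnt3a and -0.21 for SET8 shRNA, without overlap in either comparison. On NM_022739 SMURF2 read 11.09 and 11.10, 10.95 and 11.06, and 11.03 and 11.11, with values of -0.09 and 0.07. SMURF1 groups overlapped in both comparisons, and its 95% interval for SET8 shRNA ran from -0.49 to 0.57. SKI read 9.73 and 8.54, 9.72 and 8.65, and 9.24 and 9.68 on NM_003036, a spread within the first 2 groups of more than 2-fold.

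Replicate spread limited several members. Of the 68 probe sets, 6 differed by more than 2-fold between the 2 control arrays (8.82%, against 6.87% of all tested), 6 between the Wnt3a arrays (8.82%, against 8.98%) and 1 between the SET8 shRNA arrays (1.47%, against 1.86%). In the control group these were probe sets of TGFBR3, ACVR1B, BMPR1A, BMPR2, SMAD7 and SKI, each with replicate 1 higher. Of the 23 genes with 2 or more tested probe sets, 13 had all of them on 1 side of 0 for Wnt3a and 12 for SET8 shRNA.

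Set against the control group, SET8 shRNA with Wnt3a medium gave 12 called probe sets over the array (0.0504%) and 0 of 68 among the members, with a smallest adjusted p of 0.14 (limma, Benjamini-Hochberg). At an unadjusted p under 0.05, 3 member probe sets were higher (4.41%, against 6.48% of all), INHBB BC030029 and both of ID2, and without the former 2 of 67 (2.99%). The 4 lower ones (5.88%, against 4.07%) were both of ID1 and both of ID3. This comparison shares arrays with each of the others, and it changes shRNA and medium at once. The log2 fold changes were -1.35 and -1.22 for ID1 (NM_181353 and NM_002165), -0.67 and -0.53 for ID3 (BC003107 and NM_002167) and 0.66 for ID2 (NM_002166).

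A further 85 genes of the pathways were listed, of which 59 had a tested probe set (99 probe sets), and none was called in any comparison by limma with Benjamini-Hochberg. Reading each gene by its brightest tested probe set, at an unadjusted p under 0.05, 5 genes were higher with Wnt3a (8.47%, against 1.74% of all genes) and 2 were lower (3.39%, against 0.574%). With SET8 shRNA 5 were higher (8.47%, against 3.71%) and 6 were lower (10.2%, against 3.7%). These genes were listed with earlier results of these arrays known. SOSTDC1 and DAND5, among the 5 higher with Wnt3a, passed the filter only through Wnt3a medium arrays, where they were high. SMAD9, FSTL4, GDF15 and ENG, among the 6 lower with SET8 shRNA, passed it only through control and Wnt3a group arrays. The shares therefore describe the list and do not test it.

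SMAD9, a receptor-regulated SMAD of the BMP branch, read 7.92 and 8.25 in the control group, 7.93 and 8.01 in the Wnt3a group and 6.62 and 6.62 with SET8 shRNA (BC067766, chromosome 13 at 36320206 to 36392375, hg18). The SET8 shRNA arrays were far below the rest and under their array medians, so BC067766 entered the test only through the control and Wnt3a group arrays. The log2 fold change was -1.35 (SE 0.23, adjusted p = 0.15, limma with Benjamini-Hochberg). The untested probe sets NM_005905 and BC104760 gave -1.06 and -0.47, the latter with overlap.

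FSTL3, a follistatin-like antagonist of activin, read 9.76 and 9.59, 9.74 and 9.08, and 10.97 and 10.93 on NM_005860. FSTL4, a follistatin-like gene, read 7.96 and 8.08, 8.42 and 8.82, and 7.26 and 7.06 on BX640845. With SET8 shRNA FSTL3 was thus the highest and FSTL4 the lowest of the 3 groups. The log2 fold changes were 1.53 (SE 0.28, adjusted p = 0.18) and -1.46 (SE 0.25, adjusted p = 0.15) by limma with Benjamini-Hochberg. FSTL4 BX640845 lay under the median of both SET8 shRNA arrays, so it entered the test only through the control and Wnt3a group arrays. The untested FSTL4 probe sets BC024300 and NM_015082 gave -1.02 and 0.02. TAGLN, a smooth muscle actin-binding protein and TGF-beta target, read 10.77 and 11.18, 10.22 and 10.85, and 12.17 and 11.99 on BC092415, with no overlap of the SET8 shRNA arrays and the rest. Its values were 1.54 (SE 0.30) on that probe set and 1.08 (SE 0.34) on NM_003186, the latter 0.70 without Wnt3a replicate 1. The untested TAGLN probe sets BC065829 and NM_001001522 gave 0.39 and -0.23, each with overlap.

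MSX2, a homeobox gene known as a BMP target, was higher in Wnt3a medium and lower with SET8 shRNA on both probe sets. BC015509 read 11.06 and 10.64 in the control group, 11.62 and 11.45 in the Wnt3a group and 10.75 and 10.84 with SET8 shRNA. NM_002449 read 8.66 and 8.83, 9.46 and 9.27, and 8.59 and 8.32. The Wnt3a arrays were the highest on both, and both comparisons use them. SET8 shRNA with Wnt3a medium against the control group gave -0.06 and -0.29. The log2 fold changes were 0.68 and 0.62 for Wnt3a (adjusted p = 1 each) and -0.74 and -0.91 for SET8 shRNA (adjusted p = 0.53 and 0.34) by limma with Benjamini-Hochberg.

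SOSTDC1, a secreted antagonist of BMP and Wnt ligands, read 6.77 and 6.61 in the control group, 7.89 and 8.03 in the Wnt3a group and 7.63 and 8.48 with SET8 shRNA (NM_015464). GDF6, a ligand of the BMP family, read 8.45 and 8.19, 9.06 and 9.09, and 9.40 and 9.13 (NM_001001557). DAND5, an antagonist of NODAL and BMP ligands, read 7.18 and 7.32, 7.78 and 8.41, and 7.87 and 8.37 (NM_152654). In all 3 the control arrays were the lowest of the 6, and for SOSTDC1 and DAND5 they lay under their array medians, so these entered the test through the Wnt3a medium arrays. The Wnt3a log2 fold changes were 1.27 (SE 0.31), 0.76 (SE 0.24) and 0.84 (SE 0.30), each with an adjusted p of 1 by limma with Benjamini-Hochberg. That of DAND5 was 0.53 without Wnt3a replicate 2. Untested probe sets gave 1.18 for SOSTDC1 (AK093408) and 0.04 for DAND5 (BC101800).

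**Figure D4:**
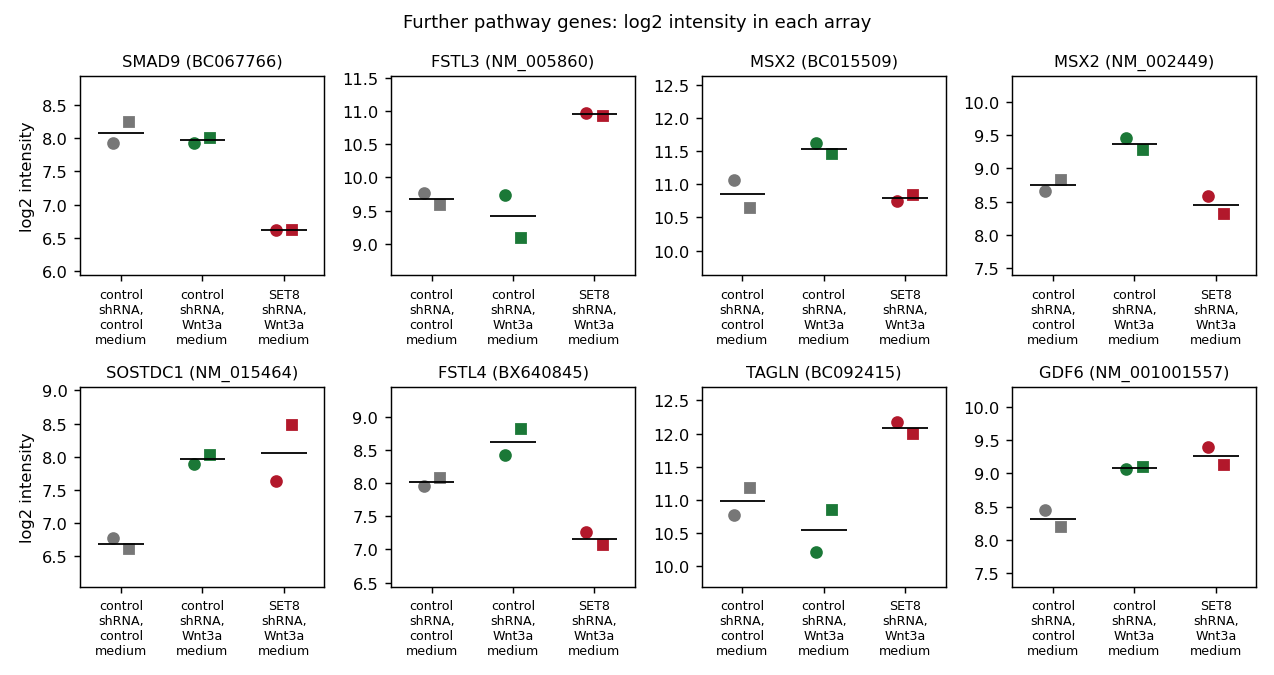
Log2 intensity in each of the 6 arrays for SMAD9, FSTL3, MSX2, SOSTDC1, FSTL4, TAGLN and GDF6 probe sets, by group, with circles for replicate 1, squares for replicate 2 and bars for the group mean. SMAD9 and FSTL4 are lowest and FSTL3 and TAGLN highest in the SET8 shRNA arrays, and the Wnt3a arrays are highest for MSX2.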

How the data were processed

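RNA of 6 HEK293 samples was hybridised to single-colour Cy3 NimbleGen arrays. The authors deposited 1 linear intensity per probe set and array, summarised with RMA per the submitters' processing notes, whose version is not given in the sources used here. Intensities in the series-wide table were identical (largest difference 0). The column of standard errors was not used. Coordinates of probe sets are those of hg18, per the file headers. Symbols were updated by Entrez number with a RefSeq table for 38916 probe sets (86.4%).

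The log2 of each intensity was used, without an offset or another normalisation. Probe sets above their array's median in at least 2 arrays (23808) were fitted over all 6 arrays, with the 3 groups as the only term, by lmFit and eBayes of limma 3.58.1 (R 4.3.3), with Benjamini-Hochberg adjustment over all of them and a threshold of 0.05. The script was tested on simulated data. Groups and replicate numbers came from the labels, which do not say that the 2 arrays of a group were separate cultures, so the p-values rest on a spread between samples that may be only technical. This number of arrays also limits the precision.

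All 43 members are named. Array values are given for members whose brightest tested probe set has an unadjusted p under 0.05, or with a probe set separated by 1.5-fold, and for the 2 brightest of each role; further probe sets of these genes, and BAMBI, TGFBR3, BMPR2, BMPR1A and SKI, were added after their values were seen. Of the other pathway genes, up to 4 a comparison with the smallest p are given. The members and lists were chosen with earlier results of these data known. Alternatives changed the filter, offset, normalisation, spread estimate, arrays fitted and replicate block, and left out each array.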

Additional observations from a re-analysis of the deposited data

How the results depend on the processing

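Of 907 alternative values, 872 kept their direction and their side of the threshold. No member was called in the main fit, so keeping that side says little of how stable the values are. The median Wnt3a change of 0.04 was -0.03 with each array centred on its median and 0.01 after quantile normalisation, and ran from -0.09 to 0.09 when single arrays were left out (-0.09 without control replicate 2). INHBB NM_002193 (-0.24 with SET8 shRNA) ran from -0.81 to 0.33 without single arrays. The mean of both INHBB probe sets gave 0.62, but it includes BC030029, which the filter admitted only through the SET8 shRNA arrays. TGFBR3 L07594 (0.45 with Wnt3a) ran from -0.06 to 0.96 in the same way. Without single arrays the SET8 count at an unadjusted p under 0.05 was 4 to 9 (4 without either SET8 shRNA array, 5 without Wnt3a replicate 1), the 1.5-fold SET8 count 3 to 13 (13 without Wnt3a replicate 2), the Wnt3a count at an unadjusted p under 0.05 0 to 5 and the 1.5-fold Wnt3a count 0 to 6 (the highest of each without Wnt3a replicate 2). A lone array of a group was assumed to vary like the other groups. The cause of these shifts was not tested beyond the loss of an array.

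Same-numbered arrays deviated together between the control and Wnt3a groups (correlation 0.75 over 23808 probe sets) and against each other between Wnt3a and SET8 shRNA (-0.29). The numbers therefore do not establish a pairing over all 3 groups. With the replicate block 0 members were called in each comparison, where 0 of all probe sets were called. The SET8 shRNA numbers were also crossed, a block chosen after seeing the data. That called 2 members for SET8 shRNA, among 182 of all probe sets. For SET8 shRNA with Wnt3a against control it called 3 members, among 792. For SET8 shRNA the lowest adjusted p (limma, Benjamini-Hochberg) of ID1 NM_181353 over its alternatives was 0.047, against 0.24 in the main fit. Among fits of single probe sets, only this crossed block called it. INHBB BC030029, which passed the filter only through the SET8 shRNA arrays, is 1 of the calls in each of those 2 counts. The filter at the 60th percentile left INHBB without a value. The series value table, being identical, was not run. Probe sets near their array's median give no firm fold change.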
